A study of Homo sapiens with 9 samples.

Results

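The forkhead box (FOX) genes of ES-2 cells were followed through depletion of the RNA-binding protein IGF2BP1 and of the transcription factor SRF. Members were the protein-coding genes whose whole symbol is FOX, one letter and digits, without FOXM1, and they numbered 43 of the 19799 protein-coding genes in the tables. ES-2, a long-established line of ovarian carcinoma origin, was the only line used, so all values describe 1 line. Total RNA was sequenced after removal of ribosomal RNA, at 72 h past transfection of control siRNA (siC), of an siRNA pool against IGF2BP1 (siIGF2BP1) or of one against SRF (siSRF), with 3 libraries per group. No group carried a further genetic change or drug, and all groups, siC included, were transfected. The sample labels do not say whether the libraries of a group came from separate cultures, so p-values measure the spread between these libraries only. In bulk RNA, less RNA per cell and fewer cells holding that RNA cannot be told apart.

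Forkhead proteins share a winged-helix domain that binds DNA at motifs close to GTAAACA, and they are grouped into lettered subfamilies by the likeness of this domain. Some are pioneer factors that open chromatin in development, such as FOXA proteins in gut and liver and FOXC, FOXD, FOXF and FOXL proteins in mesenchyme and kidney. Others are present in most tissues, such as FOXO proteins, which are kept in the cytoplasm by AKT, and FOXK proteins, which are tied to nutrient signalling and to the SIN3 and BAP1 repressor complexes. FOXM1, the cell cycle member of the family, was not counted here.

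The libraries held from 6421764 to 9416175 reads on genes. IGF2BP1 mRNA was between 12.1 and 13.5 FPKM (fragments per kilobase of gene length, scaled to library size) in siC and between 4.02 and 4.18 FPKM in siIGF2BP1. In siSRF it was between 13.7 and 14.6 FPKM, above every siC library. SRF mRNA was between 13.6 and 16.0 FPKM in siC, between 1.36 and 1.63 FPKM in siSRF, and between 5.42 and 6.80 FPKM in siIGF2BP1, so the siIGF2BP1 libraries also held less SRF mRNA. The keratins KRT7, at 101 FPKM, and KRT18, at 43.4 FPKM, and the mesenchymal intermediate filament VIM, at 1055 FPKM, were abundant in siC. The Mullerian markers PAX8 and WT1 were at 0.155 and 0.118 FPKM in siC, and EPCAM, CDH1, MUC16, MSLN and KRT19 had no read there. Of 6 markers of leukocytes, endothelium, hepatocytes and erythrocytes, PTPRC, CD3E and ALB had no read in any library, and HBB had 1 read in all. The endothelial cadherin CDH5 was at 9.38 FPKM in siC, and PECAM1, also endothelial, was at 0.313 FPKM there.

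Of the 43 FOX genes, 24 averaged at least 0.1 FPKM over the 9 libraries and are called expressed here, and 16 reached 1 FPKM. FOXH1, FOXI1, FOXI2, FOXB1 and FOXP3 had between 1 and 4 reads in at least 1 library and a mean under 0.1 FPKM. The other 14 (FOXA3, FOXB2, FOXE1, FOXE3, FOXI3, FOXJ1, FOXL2, FOXN1, FOXN4, FOXO6, FOXQ1, FOXR1, FOXR2 and FOXS1) had no read in any library. The FOXA, FOXC, FOXD, FOXF, FOXJ, FOXK, FOXL, FOXN, FOXO and FOXP subfamilies each had an expressed member, while FOXB, FOXE, FOXH, FOXI, FOXQ, FOXR and FOXS had none. FOXJ1, a factor of ciliated cells, FOXL2, a factor of granulosa cells, and FOXP3, a factor of regulatory T cells, were thus without reads or, for FOXP3, with 1 read in 1 library.

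In siC, the family was led by 1 gene. FOXD1, a factor of kidney stroma and retina in development, stood at 118 FPKM ± 6.87 (SD, n = 3), above 98.6% of all protein-coding genes. FOXK1 followed at 18.8 FPKM ± 0.321, FOXK2 at 16.9 FPKM ± 1.07 and FOXJ3, a factor of muscle and male germ cells, at 11.4 FPKM ± 0.101. The libraries of these 4 genes did not overlap with those of the next gene in the order. FOXL1, FOXN2, FOXO3, FOXF2 and FOXN3 lay between 7.78 and 8.89 FPKM and overlapped from one to the next, so their order is not set by these libraries. FOXJ2, FOXP1, FOXC1, FOXO4, FOXP4, FOXO1 and FOXA2 followed, from 4.13 down to 1.25 FPKM. FOXC2, FOXA1, FOXP2, FOXD3, FOXD2, FOXF1 and FOXD4 were lower, from 0.661 down to 0.169 FPKM. FOXD3, FOXD2, FOXF1 and FOXD4 rested on 13 reads or fewer in every library.

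**Figure D1:**
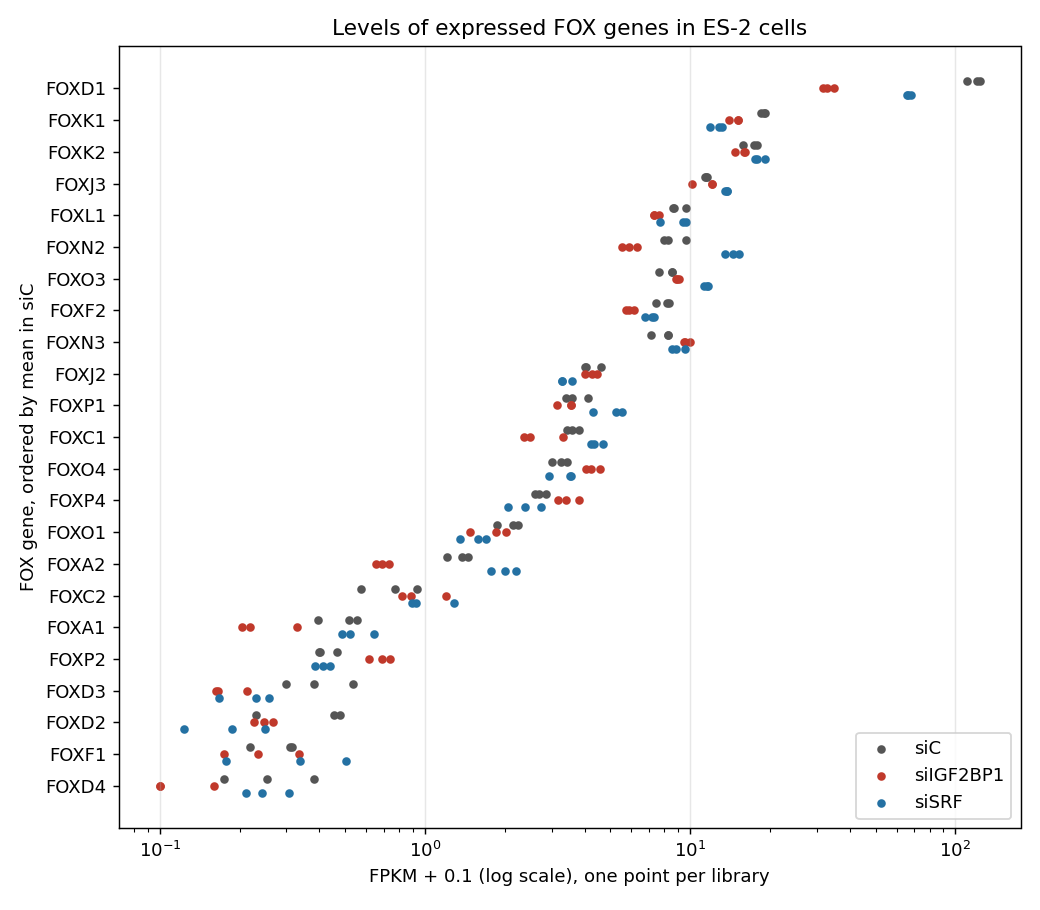
FPKM + 0.1 of expressed FOX genes on a log axis, with 1 point per library and 3 libraries per group, ordered by the mean in siC. FOXD1 stands apart at the top in every group, and its siIGF2BP1 and siSRF points lie below its siC points.

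FOXD1 made up between 50.5% and 52.6% of the summed FPKM of the family in siC, between 23.9% and 25.5% in siIGF2BP1 and between 35.8% and 35.9% in siSRF. The sum itself was 218, 234 and 235 FPKM in the siC libraries. It was 136, 129 and 137 FPKM in the siIGF2BP1 libraries and 185, 189 and 183 FPKM in the siSRF libraries, so neither knockdown overlapped with siC. Without FOXD1 the sum was 108, 111 and 115 FPKM in siC, 101, 97.1 and 104 FPKM in siIGF2BP1 and 119, 121 and 117 FPKM in siSRF, so the remaining members together were a little lower in every siIGF2BP1 library and a little higher in every siSRF library than in siC.

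**Figure D2:**
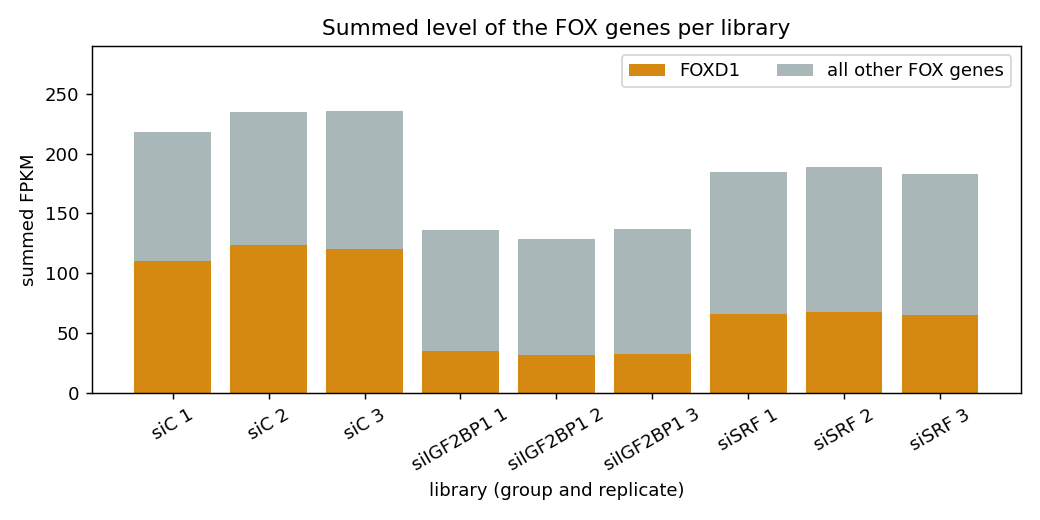
Summed FPKM of the FOX genes in each of the 9 libraries, split into FOXD1 (orange) and all other FOX genes (grey). FOXD1 is about as tall as the rest in siC and much shorter than the rest in siIGF2BP1.

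Many FOX genes had a single exon. Of the 24 expressed members, 8 had a single exon in their canonical transcript (33.3%), against 2.75% of the 12495 protein-coding genes that averaged at least 0.1 FPKM. The share was 36.8% of the 19 members under 0.1 FPKM, so it did not set the expressed members apart within the family. Median GC content was 54.8% in the expressed members and 61.1% in the others, against 47.5% for protein-coding genes, and among the expressed it ran from 34.4% in FOXN2 to 66.6% in FOXD1. Single-exon members included FOXD1, FOXL1, FOXC1 and FOXC2, while FOXK1, FOXK2, FOXJ3, FOXN2 and the FOXP genes had 7 or more exons. Several members were neighbours. On chromosome 16, FOXF1 (0.190 FPKM over the 9 libraries), FOXC2 (0.822 FPKM) and FOXL1 (8.35 FPKM) lay within a row, with 51.4 kb and 6.64 kb between them. On chromosome 6, FOXQ1 (no read), FOXF2 (6.89 FPKM) and FOXC1 (3.48 FPKM) were 74.8 kb and 214 kb apart. Direct neighbours thus differed in level from no read to several FPKM.

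Promoter sequence is shown for FOXD1 and FOXK1, the members that the test described below called lower in both knockdowns. FOXD1 (ENSG00000251493) is a single-exon gene on the minus strand of chromosome 5, at chr5:73444827-73448777 (GRCh38). FOXK1 (ENSG00000164916) has 9 exons and lies on the plus strand of chromosome 7, at chr7:4682295-4771442. The 250 bases before the RefSeq start of each (GRCh38.p14; FOXD1 chr5:73448778-73449027, minus strand, FOXK1 chr7:4682045-4682294, plus strand) read as follows, 5′ to 3′ in the sense of the gene, with matches to the searched motifs in capitals.
FOXD1: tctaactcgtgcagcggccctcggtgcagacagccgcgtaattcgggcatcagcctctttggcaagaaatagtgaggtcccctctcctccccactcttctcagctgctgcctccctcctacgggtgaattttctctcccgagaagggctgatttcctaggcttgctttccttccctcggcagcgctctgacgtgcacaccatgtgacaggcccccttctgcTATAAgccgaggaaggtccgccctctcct
FOXK1: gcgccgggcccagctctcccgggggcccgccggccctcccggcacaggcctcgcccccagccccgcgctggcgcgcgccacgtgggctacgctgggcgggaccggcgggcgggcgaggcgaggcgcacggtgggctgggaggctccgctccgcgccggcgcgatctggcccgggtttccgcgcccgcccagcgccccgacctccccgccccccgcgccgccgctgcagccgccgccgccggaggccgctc

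The windows differ in base composition, with 58.8% GC in FOXD1 and 85.6% in FOXK1, against a median of 58% over all 35116 RefSeq windows of this length. Both strands were searched for the CArG box bound by SRF, the forkhead motif GTAAACA, the Ets motif CCGGAAG and TATAA, which do not overlap in these windows. The FOXD1 window held 1 TATAA, the capitals above, and FOXK1 held none of the 4 motifs. TATAA was found in 18.9% of all windows, CCGGAAG in 8.52%, GTAAACA in 2.98% and the CArG box in 1.16%. RefSeq windows were at hand for 33 of the 43 members, 18 of them expressed, and these had 44 windows in all. A CArG box was found in 3 of the 44 windows, 2 of FOXP1, which has 6 windows, and 1 of FOXP2. These matches are shown because SRF was depleted here, each with 10 bases on either side and the CArG box in capitals (FOXP1 at chr3:71245230-71245259 and chr3:71132260-71132289, both on the minus strand, and FOXP2 at chr7:114414774-114414803, plus strand, GRCh38.p14).
FOXP1, first window: ccatacacatCCTAATATGGttacctcccc
FOXP1, second window: ccataactagCCATTTTAGGgaactggact
FOXP2: gtaagcttgtCCTAATAAGGgaagcaagaa

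The matches begin 172, 82 and 31 bases before the respective transcript starts. First and second refer only to the FOXP1 windows with a match. All 3 matches lie at starts inside the genes, which span chr3:70954693-71583978 (FOXP1) and chr7:114086327-114693772 (FOXP2). The FOXP1 window at the 5′ end of the gene (chr3:71583679-71583978) held no CArG box. A match describes the letters of a window and not a bound site, and a window without one says nothing of SRF binding elsewhere.

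To ask which members changed upon depletion of IGF2BP1, siIGF2BP1 was compared with siC. The 23 members that averaged at least 0.1 FPKM over these 6 libraries were tested. SRF mRNA was also lower in siIGF2BP1, and its part in the values was not tested. Differences were tested by limma-trend on the scale of log2(FPKM + 0.1), where changes of low genes come out too small, and called at an adjusted p of at most 0.01 (Benjamini-Hochberg over all genes tested). In what follows, called refers to this test unless limma-voom is named. FOXD1 and FOXK1 were lower and no member was higher, against 5.91% lower and 5.52% higher among all 12512 protein-coding genes tested. The median log2 fold change of the 23 was -0.24, against -0.01 for all protein-coding genes, with 16 members below 0 and 7 above. At an unadjusted p under 0.05, 10 were lower and 4 were higher, where 21.9% of protein-coding genes were lower and 19.8% higher. With limma-voom on the reads recovered from the FPKM values, 3 members were lower (FOXD1, FOXK1 and FOXN2) and 2 were higher (FOXN3 and FOXP2), where this test called 14.3% of protein-coding genes lower and 13.7% higher.

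To ask which members changed upon depletion of SRF, siSRF was compared with the same siC libraries for 24 members. FOXD1 and FOXK1 were lower and FOXN2, FOXO3 and FOXJ3 were higher, against 8.67% lower and 11.1% higher among all 12381 protein-coding genes tested. The median log2 fold change of the 24 was 0.07, against 0.02 for all protein-coding genes, with 11 members below 0 and 13 above. Limma-voom called the same 5 members in the same directions and added FOXP1 as higher, where it called 17.5% of protein-coding genes lower and 20.9% higher. Because both comparisons use the same siC libraries, their values are given side by side below and are not independent of each other.

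The knockdowns were also compared with each other directly, without siC, for 22 members. FOXD1, FOXN2, FOXA2 and FOXO3 were lower in siIGF2BP1 than in siSRF and no member was higher, against 18.3% lower and 13.7% higher among 12507 protein-coding genes. At an unadjusted p under 0.05, 12 were lower and 5 were higher, against 31.9% and 26.7% of protein-coding genes. Limma-voom called 10 members lower and 3 higher (FOXK1, FOXP2 and FOXP4), against 26.6% lower and 22.6% higher.

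**Figure D3:**
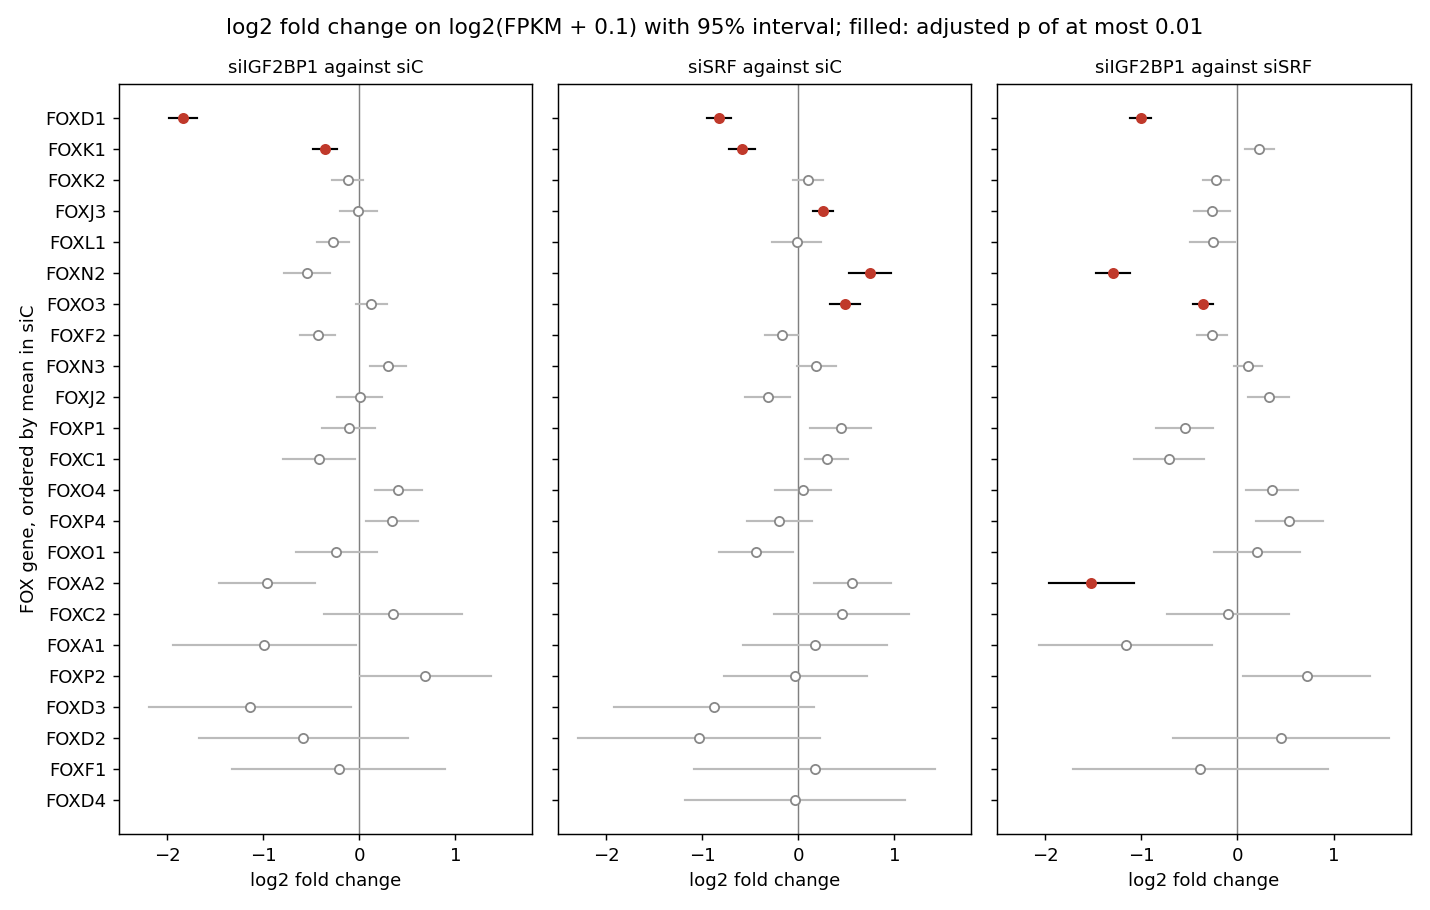
log2 fold change of expressed FOX genes in the 3 comparisons, as points with 95% intervals, on the scale of log2(FPKM + 0.1), with filled points for an adjusted p of at most 0.01. FOXD1 is called in all 3 comparisons, and intervals widen towards the low genes at the bottom.

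FOXD1 fell in both knockdowns. It was at 110.2, 123 and 120.3 FPKM in the siC libraries, at 34.8, 31.6 and 32.8 FPKM in the siIGF2BP1 libraries and at 66.2, 67.9 and 65.4 FPKM in the siSRF libraries. The 3 groups did not overlap, with siC highest and siIGF2BP1 lowest. The means were 118 FPKM ± 6.87, 33.1 FPKM ± 1.61 and 66.5 FPKM ± 1.28 (SD, n = 3 each). The log2 fold change against siC was -1.83 in siIGF2BP1 (standard error 0.061, limma adjusted p = 0.000101) and -0.82 in siSRF (standard error 0.052, limma adjusted p = 0.000399). FOXD1 was thus at 28.1% of its siC level in siIGF2BP1 and at 56.4% in siSRF. Between the knockdowns the log2 difference was -1.01 (standard error 0.045, limma adjusted p = 3.66e-05), siIGF2BP1 being lower. FOXD1 was counted with 605 reads or more in every library. These calls held without any 1 library and in the other settings tried, and the changes were -1.63 and -0.60 once trends along GC content and length had been removed.

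The other FOXD genes were low, and none of their changes was called. FOXD3, a factor of neural crest and pluripotent cells, was at 0.436, 0.282 and 0.199 FPKM in siC, from 6, 4 and 3 reads. It was at 0.0625, 0.0657 and 0.113 FPKM in siIGF2BP1 and at 0.0672, 0.158 and 0.130 FPKM in siSRF, from 1 to 3 reads per library. All knockdown libraries lay below all siC libraries, with log2 fold changes of -1.14 (standard error 0.435, limma adjusted p = 0.142) and -0.88 (standard error 0.431, limma adjusted p = 0.209). FOXD2 was at 0.130, 0.378 and 0.355 FPKM in siC, at 0.167, 0.147 and 0.126 FPKM in siIGF2BP1 and at 0.150, 0.0235 and 0.0870 FPKM in siSRF. Its groups overlapped. The log2 fold change in siIGF2BP1 was -0.58 (standard error 0.451, limma adjusted p = 0.466), and that in siSRF was -1.04 (standard error 0.52, limma adjusted p = 0.217). FOXD4 had 2, 1 and 4 reads in siC and 0, 0 and 1 in siIGF2BP1, and near-identical FOXD4-like copies lie outside the rule, so its count is uncertain.

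FOXK1 and FOXK2 are close relatives that bind the same motif, recruit SIN3 and BAP1 complexes, hold down autophagy genes and raise glycolytic genes. FOXK1 was at 18.4, 19.0 and 18.9 FPKM in siC, at 15.1, 13.9 and 15.04 FPKM in siIGF2BP1 and at 11.7, 13.1 and 12.8 FPKM in siSRF. The 3 groups did not overlap, and the log2 fold change was -0.36 in siIGF2BP1 (standard error 0.052, limma adjusted p = 0.00687) and -0.58 in siSRF (standard error 0.056, limma adjusted p = 0.00116), that is 78.1% and 66.6% of the siC level. The call in siIGF2BP1 was lost without any 1 of the 6 libraries, with adjusted p between 0.0216 and 0.0279, while that in siSRF held without each library. With GC and length trends taken out the siSRF change was -0.36, and it was still called.

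FOXK2 was at 15.7, 17.7 and 17.2 FPKM in siC, at 15.9, 14.7 and 15.9 FPKM in siIGF2BP1 and at 17.7, 17.5 and 19.0 FPKM in siSRF. Both knockdowns overlapped with siC, and the log2 fold change was -0.12 in siIGF2BP1 (95% interval -0.28 to 0.04, limma adjusted p = 0.29) and 0.10 in siSRF (95% interval -0.05 to 0.26, limma adjusted p = 0.328). With GC and length trends taken out, the siSRF value was 0.28 and was called (limma adjusted p = 0.0076). Between the knockdowns, FOXK1 was 0.23 higher on the log2 scale in siIGF2BP1 (limma adjusted p = 0.0326) and FOXK2 was 0.22 lower (limma adjusted p = 0.0238), and neither was called. The FOXK1 value between the knockdowns fell to -0.01 with GC and length trends taken out.

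The ratio of FOXK1 to FOXK2 shows how the pair shifted within each library. It was 1.18, 1.08 and 1.10 in siC, 0.951, 0.948 and 0.944 in siIGF2BP1 and 0.662, 0.746 and 0.673 in siSRF. FOXK1 was thus above FOXK2 in every siC library and below it in every knockdown library. The mean log2 ratio differed from siC by -0.24 in siIGF2BP1 and -0.69 in siSRF (two-sided exact permutation test, p = 0.1 each, the smallest p that 3 libraries against 3 allow). Ratios were formed for 3 pairs chosen after their values were seen, and the adjusted p over the 9 comparisons of ratios (exact permutation test) was also 0.1.

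The expressed FOXN genes moved to opposite sides of siC in siIGF2BP1 and to the same side in siSRF. FOXN2 and FOXN3 are related factors, and FOXN3 is known as a repressor that acts at cell cycle checkpoints. FOXN2 was at 7.88, 8.16 and 9.59 FPKM in siC, at 5.76, 5.45 and 6.22 FPKM in siIGF2BP1 and at 15.2, 14.4 and 13.5 FPKM in siSRF. All siIGF2BP1 libraries lay below and all siSRF libraries lay above the siC libraries. The log2 fold change was 0.75 in siSRF (standard error 0.091, limma adjusted p = 0.00259) and -0.54 in siIGF2BP1 (standard error 0.099, limma adjusted p = 0.0144), the latter not called. Between the knockdowns the log2 difference was -1.29 (standard error 0.074, limma adjusted p = 8.25e-05). The call in siSRF was lost without siC replicate 1 or 2 or siSRF replicate 1 or 2 (adjusted p between 0.0105 and 0.0166) and, at 0.47, with GC and length trends taken out (limma adjusted p = 0.0109).

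FOXN3 was at 8.15, 7.04 and 8.13 FPKM in siC, at 9.34, 9.44 and 9.87 FPKM in siIGF2BP1 and at 9.43, 8.72 and 8.46 FPKM in siSRF. Every knockdown library lay above every siC library, with log2 fold changes of 0.30 and 0.19, and neither was called. The ratio of FOXN2 to FOXN3 was 0.966, 1.16 and 1.18 in siC, between 0.577 and 0.631 in siIGF2BP1 and between 1.59 and 1.65 in siSRF. No pair of groups overlapped in this ratio (two-sided exact permutation test, p = 0.1 for each pair of groups).

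**Figure D4:**
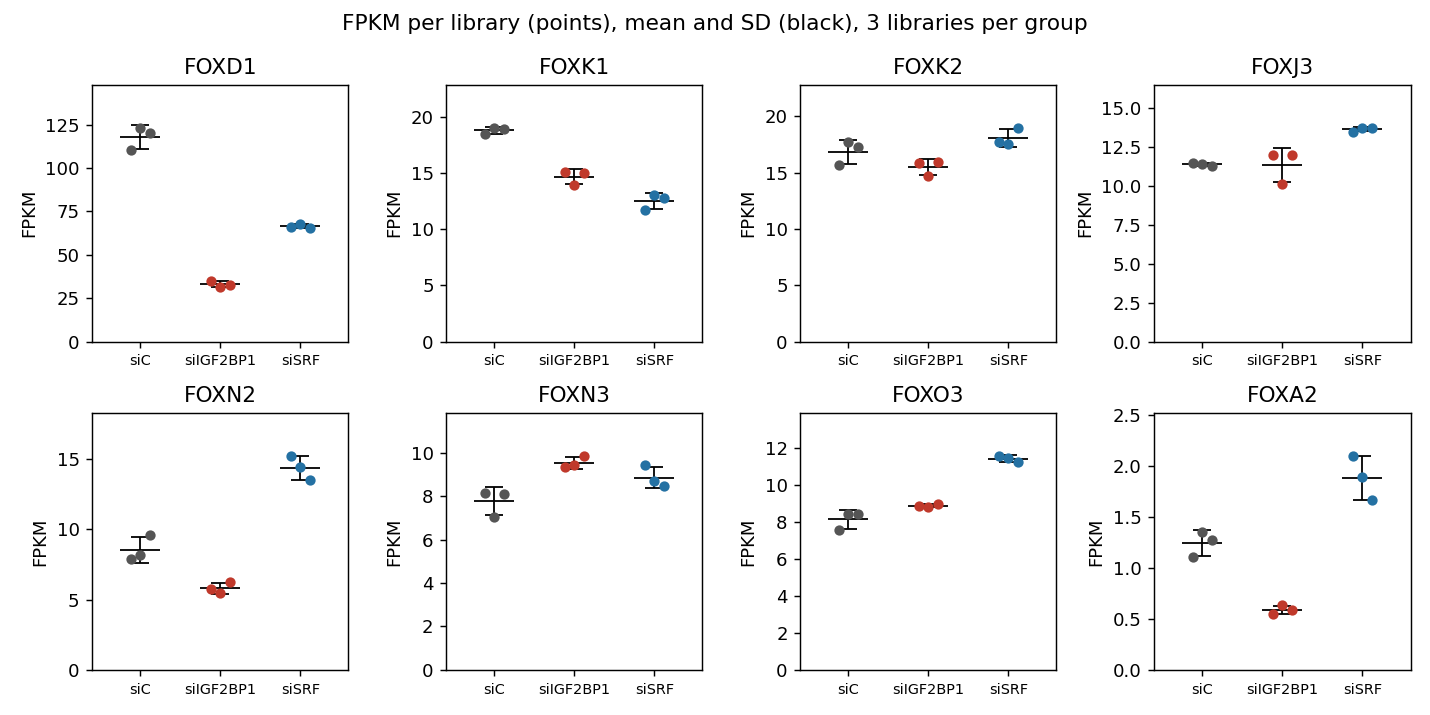
FPKM of 8 FOX genes in each library (points), with the mean and SD of 3 libraries per group in black, on axes that start at 0. FOXD1 and FOXK1 are lower in both knockdowns, and FOXN2 and FOXA2 lie on opposite sides of siC in siIGF2BP1 and siSRF.

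FOXO3, FOXO1 and FOXO4 are the expressed FOXO genes, targets of insulin and AKT signalling whose proteins raise genes of cell cycle arrest, stress defence and cell death. FOXO3 was at 7.53, 8.41 and 8.43 FPKM in siC, at 8.85, 8.77 and 8.96 FPKM in siIGF2BP1 and at 11.5, 11.5 and 11.2 FPKM in siSRF. It was highest in every siSRF library. The log2 fold change was 0.49 in siSRF (standard error 0.064, limma adjusted p = 0.00336) and 0.13 in siIGF2BP1 (95% interval -0.04 to 0.29, limma adjusted p = 0.275). Between the knockdowns it was -0.36 (standard error 0.044, limma adjusted p = 0.00145). The siSRF call was lost without any 1 of the 3 siSRF libraries, with adjusted p between 0.015 and 0.0199. FOXO3B, a pseudogene copy of FOXO3 outside the rule, was at 5.78, 4.82 and 8.17 FPKM in the 3 groups and was also highest in siSRF, and reads of such copies may be split in a way that these values do not show.

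FOXO4 averaged 3.13 FPKM ± 0.215 under siC, 4.18 FPKM ± 0.279 under siIGF2BP1 and 3.25 FPKM ± 0.349 under siSRF (SD, n = 3 each). FOXO1, in the same order, averaged 1.99 FPKM ± 0.196, 1.68 FPKM ± 0.274 and 1.45 FPKM ± 0.174. The FOXO4 log2 fold change in siIGF2BP1 was 0.41 (limma adjusted p = 0.0429) and that of FOXO1 in siSRF was -0.44 (limma adjusted p = 0.105), and neither was called. The ratio of FOXO3 to FOXO1 was between 3.92 and 4.25 in siC, between 4.68 and 6.41 in siIGF2BP1 and between 7.15 and 9.17 in siSRF. The FOXO mix thus held more FOXO3 per FOXO1 in every knockdown library (two-sided exact permutation test, p = 0.1 for each knockdown against siC).

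**Figure D5:**
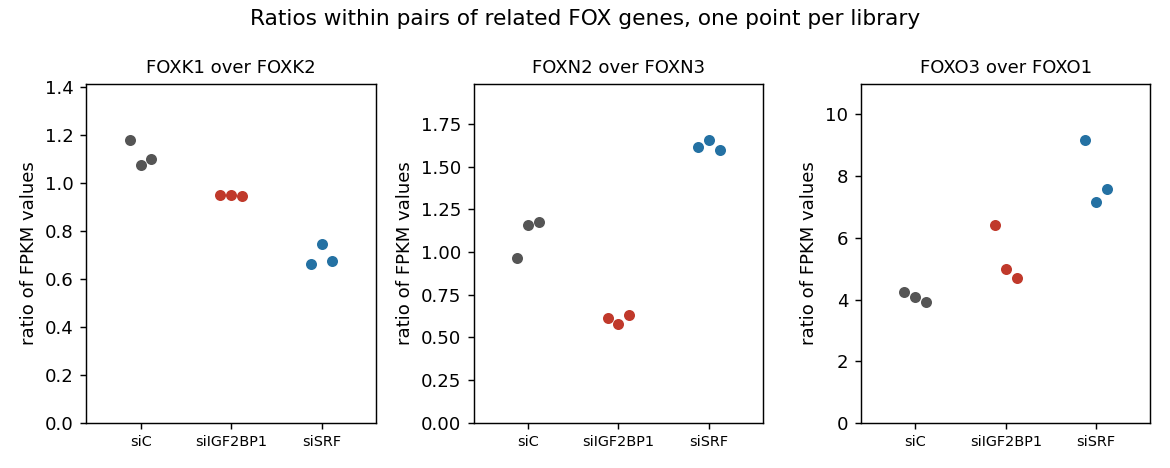
Ratios of FPKM values within 3 pairs of related FOX genes, with 1 point per library. The ratio of FOXK1 to FOXK2 steps down from siC to siIGF2BP1 to siSRF, and that of FOXO3 to FOXO1 is highest in siSRF.

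FOXJ3 was at 11.4, 11.4 and 11.3 FPKM in siC, at 11.9, 10.1 and 11.99 FPKM in siIGF2BP1 and at 13.5, 13.7 and 13.7 FPKM in siSRF. Only the siSRF libraries stood apart from siC, and the siSRF value was 0.26 on the log2 scale (standard error 0.044, limma adjusted p = 0.0079) against -0.01 in siIGF2BP1 (95% interval -0.20 to 0.18, limma adjusted p = 0.969). The siSRF call was the weakest of the family: it was lost without any 1 of the 6 libraries (adjusted p between 0.0216 and 0.0376), after rescaling by median ratios, and at 0.14 with GC and length trends taken out (limma adjusted p = 0.0908). FOXJ2, its relative, was at 4.13, 4.14 and 3.29 FPKM in siC, siIGF2BP1 and siSRF, with a log2 fold change of -0.32 in siSRF that was not called (limma adjusted p = 0.0633).

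FOXA2 and FOXA1 are pioneer factors of endoderm, and FOXA2 is also a factor of uterine glands. FOXA2 was at 1.11, 1.36 and 1.27 FPKM in siC, at 0.551, 0.632 and 0.590 FPKM in siIGF2BP1 and at 2.1, 1.90 and 1.67 FPKM in siSRF, from 11 to 45 reads per library. The 3 groups did not overlap, with siIGF2BP1 below and siSRF above siC. The log2 difference between the knockdowns was -1.52 (standard error 0.183, limma adjusted p = 0.00135), the largest between them on this scale among the 22 members tested, and it was called without each of the 6 libraries. Against siC the log2 fold changes were -0.96 (limma adjusted p = 0.0264) and 0.56 (limma adjusted p = 0.055), and neither was called. FOXA1 was at 0.456, 0.296 and 0.417 FPKM in siC, at 0.229, 0.103 and 0.119 FPKM in siIGF2BP1 and at 0.422, 0.386 and 0.545 FPKM in siSRF, from 3 to 16 reads per library. It was lowest in siIGF2BP1, with a log2 fold change of -0.99 that was not called (standard error 0.394, limma adjusted p = 0.159), and overlapped with siC in siSRF (0.17, limma adjusted p = 0.741).

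The mesenchymal members FOXC1, FOXC2, FOXF1, FOXF2 and FOXL1 act in vessels, gut mesenchyme and the response to Hedgehog signals. None of them was called in any comparison by limma-trend. FOXF2 averaged 7.88 FPKM ± 0.471 under siC, 5.81 FPKM ± 0.223 under siIGF2BP1 and 6.98 FPKM ± 0.277 under siSRF (SD, n = 3 per group). Its log2 fold change in siIGF2BP1 was -0.43 (limma adjusted p = 0.0117), just short of the threshold. FOXL1 was at 8.89, 7.33 and 8.83 FPKM and FOXC1 at 3.51, 2.63 and 4.32 FPKM in siC, siIGF2BP1 and siSRF. Among these 5 genes FOXC1 differed most between the knockdowns, by -0.71 on the log2 scale (limma adjusted p = 0.0125). Limma-voom called FOXC1 lower there (limma-voom adjusted p = 0.00011), where it called 26.6% of protein-coding genes lower. The neighbours FOXF2 and FOXC1 had means below siC in siIGF2BP1, whereas in siSRF FOXF2 had a lower and FOXC1 a higher mean than siC. FOXC2 and FOXF1 were under 1 FPKM in the mean of each group, and their groups overlapped.

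FOXP1, FOXP2 and FOXP4 are repressors of lung, immune and neural development that act as dimers. FOXP1 averaged 3.6 FPKM ± 0.375 under siC, 3.32 FPKM ± 0.238 under siIGF2BP1 and 4.93 FPKM ± 0.651 under siSRF, a log2 fold change of 0.44 in siSRF that was not called (limma adjusted p = 0.0587). FOXP2 averaged 0.322 FPKM ± 0.038 under siC, 0.579 FPKM ± 0.060 under siIGF2BP1 and 0.312 FPKM ± 0.027 under siSRF (SD, n = 3 per group). Its siIGF2BP1 libraries held 64, 69 and 87 reads and lay above all others. Its log2 fold change there was 0.69 (limma adjusted p = 0.168), while limma-voom on reads gave 0.85 (limma-voom adjusted p = 0.00139). FOXP4 was at 2.62, 3.36 and 2.29 FPKM in siC, siIGF2BP1 and siSRF. The 2 genes with a CArG box in a window of an internal start, FOXP1 and FOXP2, thus had siSRF values of 0.44 and -0.03. Neither was called by limma-trend.

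Of 20 genes of PI3K and AKT signalling and other control of FOXO proteins, 2 fell and 1 rose in siIGF2BP1. In siSRF 2 fell and 4 rose. Beside these counts and those of the next lists, limma-trend called 5.91% of protein-coding genes lower and 5.52% higher in siIGF2BP1. The siSRF shares were 8.67% lower and 11.1% higher. In siSRF, SGK1, a kinase that also phosphorylates FOXO proteins, rose by 0.98 and AKT1 fell by 0.73 on the log2 scale (limma adjusted p = 0.000399 and 0.000743). In siIGF2BP1 the 14-3-3 genes YWHAH and YWHAZ, whose proteins hold FOXO in the cytoplasm, fell by 0.44 and 0.41 on the log2 scale. The other 14-3-3 genes of the list (YWHAB, YWHAE, YWHAG, YWHAQ and SFN) were not called there. YWHAE was at 0.22 and the rest had negative values. The list's median log2 fold change was -0.06 in siIGF2BP1 and 0.12 in siSRF, against -0.01 and 0.02 for all protein-coding genes.

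Of 22 FOXO target genes, 21 were tested, and 1 fell and 4 rose in each knockdown. TXNIP, an inhibitor of thioredoxin and glucose uptake, rose in both, by 1.08 in siIGF2BP1 and 1.67 in siSRF on the log2 scale (limma adjusted p = 0.000185 and 3.63e-05). The target gene that fell in siIGF2BP1 was the cell cycle inhibitor CDKN1A, by 1.12 (limma adjusted p = 0.00997), and its siSRF value was -1.33 and not called (limma adjusted p = 0.017). The one that fell in siSRF was the insulin receptor substrate IRS2, by 0.79. In siIGF2BP1 the catalase gene CAT rose by 0.78 and the sestrin SESN3 by 0.93. In siSRF the stress gene GADD45A rose by 1.08 and the transcription factor KLF6 by 0.40. The medians were 0.26 and -0.10. These genes have many other regulators, and the part of FOXO proteins in their values was not tested.

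Among 15 genes whose proteins act with FOXK proteins, 3 fell in siIGF2BP1 and 3 fell and 1 rose in siSRF, and SRF itself, the gene targeted in siSRF, is one of those that fell in both. DVL1, which FOXK proteins carry into the nucleus, fell by 0.54 and 0.75 on the log2 scale (limma adjusted p = 0.00716 and 0.00329). SUDS3, a subunit of the SIN3 complex, fell by 0.41 in siIGF2BP1 and rose by 0.33 in siSRF (limma adjusted p = 0.00538 and 0.00421). Of 12 autophagy genes that FOXK proteins hold down, none was called in siIGF2BP1 by limma-trend. Limma-voom called 3 lower there, against 14.3% of protein-coding genes. An unadjusted p under 0.05 (limma-trend) was reached by 4 lower and 1 higher, against 21.9% and 19.8% of protein-coding genes. In siSRF, 2 fell, WIPI2 by 0.68 and SQSTM1 by 0.42 on the log2 scale, and 2 rose, ATG12 by 0.47 and BECN1 by 0.41. Of 8 glycolysis genes that FOXK proteins raise, 2 fell and 1 rose in siIGF2BP1, and 1 rose in siSRF. Hexokinase HK2 fell by 0.40 in siIGF2BP1 and rose by 0.68 in siSRF (limma adjusted p = 0.00628 and 0.000747), and PFKFB3 fell by 0.73 and PDK1 rose by 0.69 in siIGF2BP1. The part of FOXK proteins in these values was not tested.

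Of 8 Hedgehog pathway genes, 7 were tested, and GLI2 and SUFU fell in siSRF, by 0.83 and 0.56 on the log2 scale. In siIGF2BP1 none was called by limma-trend and 1 was called higher by limma-voom, against 13.7% of protein-coding genes. At an unadjusted p under 0.05 (limma-trend), 3 were higher, against 19.8% of protein-coding genes. Of 13 TGF-beta and Notch genes, 12 were tested. SNAI2, SMAD3 and TGFBR2 rose in siIGF2BP1, by 1.35, 0.73 and 0.39 on the log2 scale, and TWIST1 fell by 0.67 in siSRF. The mesenchymal markers did not move together. In siIGF2BP1 FN1 fell by 0.80 and CDH2 rose by 0.66, with VIM at -0.26 and not called, and in siSRF FN1 fell by 1.36 and VIM by 0.31, with CDH2 at 0.23 and not called. Among the keratins, KRT7 rose in both, by 0.59 and 0.33, KRT8 rose by 0.55 in siIGF2BP1 (0.19 in siSRF, not called), and KRT18 rose by 0.91 in siSRF (-0.07 in siIGF2BP1, not called). CDH5 rose by 0.70 in siIGF2BP1, with PECAM1 at 0.04 there and not called. The part of these shifts in the FOX values was not tested.

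Non-coding genes named after a member were low. FOXD2-AS1 averaged 1.33 FPKM under siC, 0.756 FPKM under siIGF2BP1 and 0.675 FPKM under siSRF, and the neighbouring FOXD2 was also lower in the mean of both knockdowns. FOXN3-AS1 was at 3.68, 3.99 and 2.89 FPKM and FOXD1-AS1 at 0.452, 0.611 and 0.389 FPKM in siC, siIGF2BP1 and siSRF. FOXC2-AS1, which overlaps FOXC2, was at 2.40, 3.84 and 0.435 FPKM, from 14 reads or fewer per library. None of these was called against siC by limma-trend or limma-voom. The sources used here do not say whether reads were counted by strand. Reads of FOXC2, FOXD1, FOXD3 and FOXP4 and of their antisense partners therefore cannot be told apart where they overlap. FOXD1-AS1, which lies within the span of FOXD1, was counted with 1 to 3 reads per library.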

How the data were processed

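The authors clipped reads with cutadapt 1.14, aligned them with HISAT2 2.1.0 to hg38, sorted them with SAMtools 1.5, counted them with featureCounts 1.5.3 and scaled them with TMM in edgeR 3.18.1. They deposited FPKM values per library with gene lengths in 2 tables, whose siC values are identical, and their own fold changes and p-values, which were not used. Tools and versions are from the submitters' processing notes. Whole reads (within 0.01) were recovered for 100% of values from FPKM and length.

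Groups came from the sample labels. Comparisons used limma 3.58.1 (limma-trend, two-sided) in R 4.3.3 after transformation to log2(FPKM + 0.1), keeping genes that averaged at least 0.1 FPKM over the 6 libraries compared. The paper's count test was not applied to FPKM values, and limma-voom on recovered reads was an alternative. Other alternatives were pseudocounts of 1 and 0.01, no filter or a mean of 1 FPKM, median-ratio rescaling, the replicate number as a block, 1 fit over all 9 libraries, GC and length trends, a threshold of 0.05 and leaving out each library. The fits were tested on simulated data. Full values are given for members called in any comparison, FOXK1, FOXK2 and, against siC, the 3 members with the largest absolute log2 fold change, and up to 3 called genes of each other list. Members and lists were chosen with earlier results of these data known. Fold changes of FOXN3, FOXO1, FOXO4, FOXJ2, FOXF2, FOXC1, FOXP1, FOXP2, BECN1, CDKN1A, IRS2, CDH2, VIM, KRT8, KRT18, PECAM1 and YWHAE, and the ratios, were added after their values were seen. Gene positions are from GENCODE on GRCh38, a later annotation than that counted on, and promoters are from RefSeq. Some genes of the lists and of the family are counted in totals and medians but not reported here by name. Proteins were not analysed here.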

Additional observations from a re-analysis of the deposited data

Results flagged for a closer look

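For FOXN2 and FOXA2 the effects of the 2 knockdowns against siC had opposite signs, and the direct test between the knockdowns passed the threshold. The log2 difference between siIGF2BP1 and siSRF was -1.29 for FOXN2, from -0.54 and 0.75 against siC. For FOXA2 it was -1.52, from -0.96 and 0.56 against siC, on far fewer reads. Both differences were called without each of the 6 libraries in turn. No cause of either was tested.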

How the results depend on the processing

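Replicate numbers did not pair the libraries: same-numbered libraries deviated from their group means with correlations between -0.044 and 0.019. With the number as a replicate block, 1 member was called lower (FOXD1) in siIGF2BP1, where 0.24% of protein-coding genes were called lower. In siSRF it was 1 lower (FOXD1) and 0 higher, against 1.87% and 1.89% of protein-coding genes. In siIGF2BP1 against siSRF it was 2 lower (FOXD1 and FOXN2), against 8.84%. Without the block these shares were 5.91%, 8.67%, 11.1% and 18.3%. The next counts of members are followed by the shares of all protein-coding genes called at the same setting. A threshold of 0.05 gave 6 lower and 1 higher in siIGF2BP1 (13.3% and 11.6%), and 10 lower and 3 higher in the direct comparison (26.8% and 21.5%). A minimum mean of 1 FPKM gave 4 lower in siIGF2BP1 (9.06%), and a fit over all 9 libraries gave 5 lower there (9.88%). Limma-voom gave 2 higher in siIGF2BP1 (13.7%), and 10 lower and 3 higher in the direct comparison (26.6% and 22.6%). Taking out GC content and length gave 7 lower in the direct comparison (20.1%). Leaving out 1 library gave 1 lower (FOXD1) each time in siIGF2BP1 (between 1.55% and 2.34%). In siSRF it gave 0 to 2 higher (between 3.25% and 8.15%). There were 0 without siSRF replicate 1 or 2, and 1 without siC replicate 1 or 2 or siSRF replicate 3. The other counts stayed within 1.5 times the reported ones.

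The threshold of 0.05, the filters, the replicate block and the fit over all 9 libraries leave a fold change unaltered. Values in those settings could not change sign. Of 668 single-member values in settings that kept all libraries, those settings included, 6 changed sign. These were FOXJ2 in siIGF2BP1 after median-ratio rescaling (-0.0026), and with GC and length taken out FOXF2 (0.050), FOXP4 (0.049), FOXL1 (0.020) and FOXD4 (0.15) in siSRF and FOXK1 between the knockdowns (-0.0064). Of 414 values without 1 library, 17 changed sign. They ranged in siIGF2BP1 from -0.46 to 0.014 for FOXF1, from -0.051 to 0.073 for FOXJ3 and from -0.032 to 0.068 for FOXJ2. In siSRF they ranged from -0.078 to 0.042 for FOXP2, from -0.0040 to 0.14 for FOXO4, from -0.075 to 0.087 for FOXL1, from -0.31 to 0.25 for FOXD4 and from -0.18 to 0.58 for FOXF1. Between the knockdowns FOXC2 ranged from -0.26 to 0.072. FOXK1 between the knockdowns was the 1 value among the 23 that changed sign whose reported adjusted p was at most 0.05 (limma-trend). FOXD2, FOXD3, FOXD4 and FOXF1 rest on 13 reads or fewer per library, and counts this low limit the precision of their values. The causes of these shifts were not tested.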
